A study of Mus musculus with 4 samples.

Results

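The oxidative phosphorylation system of the heart was followed in whole hearts of male mice after transverse aortic constriction (TAC), a surgical narrowing of the aorta that loads the left ventricle with pressure, and after a sham operation. The members are all genes whose mouse symbol, old or new, has the form of a nuclear-encoded subunit of complex I (Ndufa, Ndufb, Ndufc, Ndufs and Ndufv), complex II (Sdha to Sdhd), complex III (Uqcr genes and Cyc1), complex IV (Cox4 to Cox8) or complex V, the ATP synthase (Atp5). The rule used names and no measured values. It matched 91 genes other than pseudogenes, of which 88 had a probe and 86 gave a signal well above background on all 4 arrays, out of 14107 genes measured in this way. By complex these were 35 genes of complex I, 4 of complex II, 9 of complex III, 16 of complex IV and 17 of complex V, and 5 associated proteins that share the names. Cox7b2 and Cox8c, isoforms known from the testis, were not well above background on any array, and Ndufb1, Ndufb4b and Ndufb4c had no probe that could be named. The names also matched 18 pseudogenes, which were left out.

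The 4 groups were sham at 2 weeks, TAC at 2 weeks, sham at 8 weeks and TAC at 8 weeks, which the study chose to represent hypertrophy and, later, failure of the heart. Each group was a single one-color Agilent array that carried RNA pooled from 4 to 6 wild-type C57BL/6J mice, with 500 ng from each. The labels give an age of 10 weeks for both groups at 2 weeks and of 16 weeks for both groups at 8 weeks, which does not match the older age at surgery given in the methods. With 1 array per group there is no spread between mice and no test, and each change is the ratio of 2 pools.

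The respiratory chain carries electrons from NADH through complex I, or from succinate through complex II, to coenzyme Q. Complex III passes them on to cytochrome c, and complex IV, cytochrome c oxidase, hands them to oxygen. Complexes I, III and IV pump protons across the inner mitochondrial membrane, and complex V makes ATP from the gradient. Most subunits are encoded in the nucleus and imported, whereas a small core set is encoded in mitochondrial DNA. The heart draws nearly all of its ATP from this system.

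Signals are given relative to the 75th percentile of the 55681 probes of the array, which was 206 and 206 in processed intensity for sham and TAC at 2 weeks and 221 and 248 at 8 weeks. All 4 arrays lay on the same slide. Between 54.7% and 58.5% of the probes of an array were well above background, and no spot was saturated. Markers of the hypertrophic response separated the TAC from the sham pools: Myh7, the beta myosin heavy chain, was 6.55-fold higher at 2 weeks and 12.9-fold at 8 weeks. All 12 markers of cardiomyocytes were measured on every array. The only available error is that between spots of the same probe on an array. The log2 ratio of 2 such spots had an SD of 0.184 over 287 probes above background, and of 0.0780 over the 25 of these with a mean log2 signal above 5, called bright here. Among the members, 81 of 86 were bright, and 85 of 86 were read from a single spot per array.

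Transcripts of the subunits were slightly and broadly lower in the TAC pools. At 2 weeks 82 of 86 members were lower than in sham, with a median log2 change of -0.15, a ratio of 0.899. At 8 weeks 81 of 86 were lower, with a median of -0.21, a ratio of 0.862. For comparison, 51.5% of all measured genes were lower by any amount at 2 weeks and 51.6% at 8 weeks. A log2 change of more than 0.32 in size was taken as a call, and few members had one. At 2 weeks 3 members were lower by more than this (Cox6b2, Sdhc and Cox7a1) and 0 were higher, where 8.44% of all genes were lower and 12.5% higher. At 8 weeks 4 members were lower (Cox7a1, Cox6b2, Atp5e and Sdhc) and 0 were higher, where 11.9% of all genes were lower and 13.3% higher. The members' share of lower calls was thus below that of all genes, while their share of changes below 0 was above it. Because this is whole-heart RNA, fewer cardiomyocytes and less of these transcripts per cardiomyocyte cannot be told apart.

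**Figure D1:**
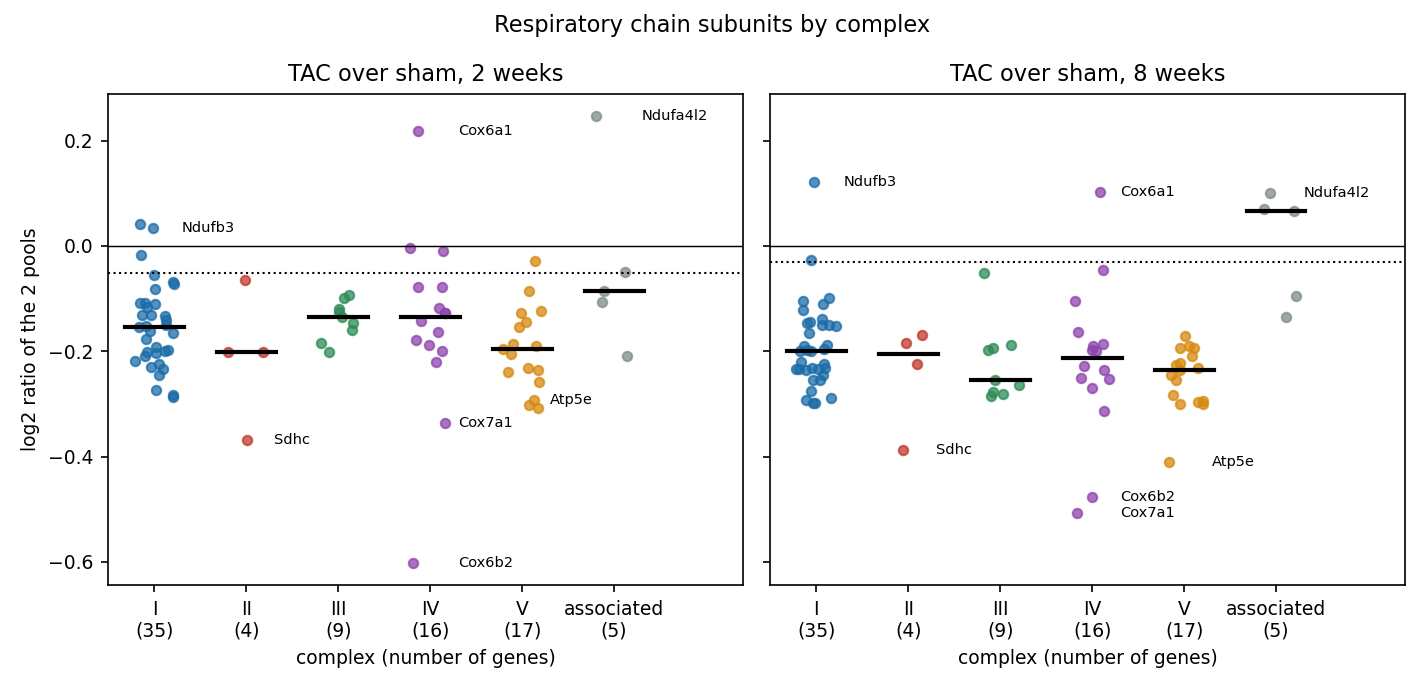
Log2 ratio of the TAC to the sham pool (y axis) for each of the 86 measured genes (1 point per gene, spread sideways at random), by complex, at 2 weeks (left) and 8 weeks (right). Black bars are medians over genes and the dotted line is the median of the 1134 other bright genes, at -0.05 and -0.03; the medians of complexes I to V lie below it at both times.

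Bright genes in general were also more often lower than higher, in 68.5% of cases at 2 weeks and 60.7% at 8 weeks. The 81 bright members had a median log2 change of -0.15 at 2 weeks, compared with -0.05 for the 1134 other bright genes. At 8 weeks the medians were -0.22 and -0.03. The difference between the medians was thus -0.10 at 2 weeks and -0.19 at 8 weeks. Against other genes of like signal the 2 times lay closer together. The difference was -0.10 and -0.16 for the 32 members with a mean log2 signal of 6 to 8. It was -0.12 and -0.14 for the 48 members at 8 to 12. Of the other bright genes, 25.7% had a change below the members' median at 2 weeks and 13.8% at 8 weeks, so that other genes with changes as low were common. The members moved within a narrow band, with an SD of 0.0902 among the bright members at 2 weeks and 0.101 at 8 weeks, against 0.259 and 0.312 among the other bright genes. This spread among members was not far above the 0.0780 between spots of the same probe, so most members cannot be ordered.

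**Figure D2:**
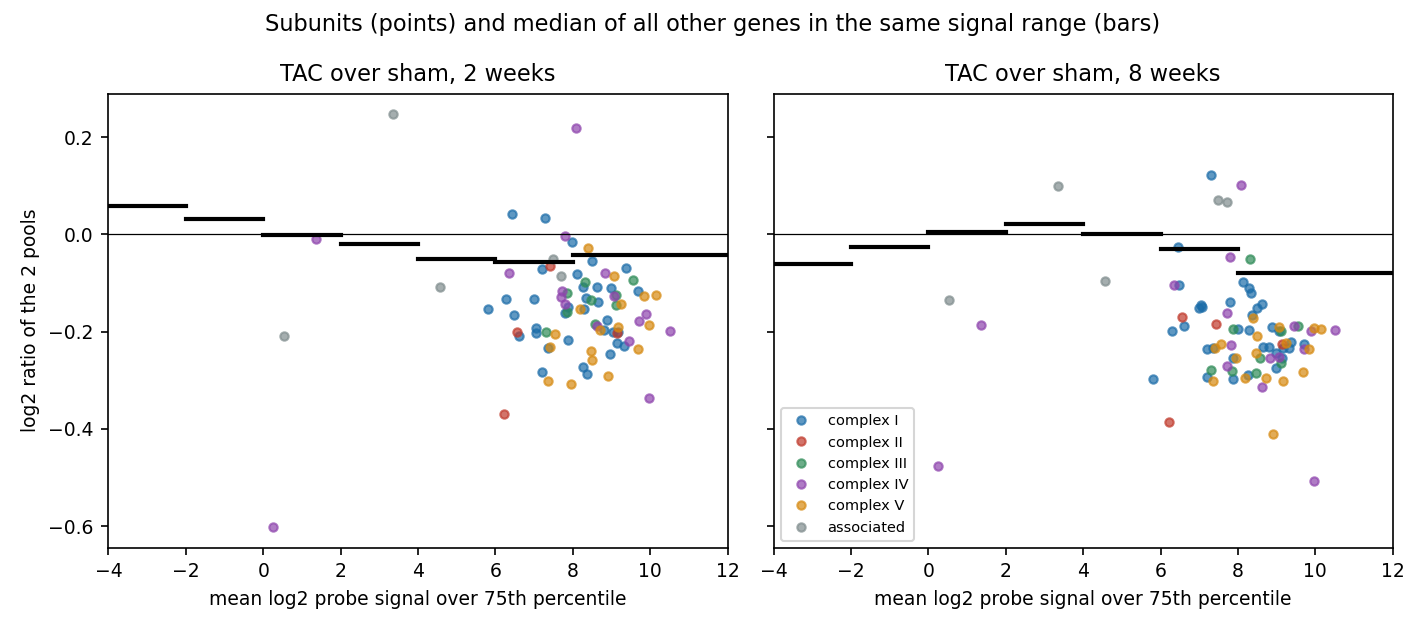
Log2 ratio of TAC to sham (y axis) against the mean log2 probe signal over the 4 arrays, relative to the 75th percentile (x axis), with 1 point for each of the 86 members. Black bars are the median change of all other genes in that range of signal (the first bar holds all genes below -2); in the range from 8 to 12 it was -0.04 at 2 weeks and -0.08 at 8 weeks, compared with -0.16 and -0.22 for the 48 members there.

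The size of the shift depended on how the arrays were scaled, although its sign did not. With quantile normalization the median was -0.09 at 2 weeks and -0.15 at 8 weeks, and 65 and 79 of 86 members were lower. With no normalization between arrays the median of all genes was itself shifted to 0.16 at 8 weeks, and the members' median was -0.05. The distance between these medians stayed at 0.21 log2 units, which a constant per array cannot alter. Over 7 settings, the main one and 6 other ways of scaling or background correction, 64 members were lower in each at 2 weeks and 62 at 8 weeks.

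In the sham pools themselves the members were lower at 8 than at 2 weeks in 62 of 86 cases, with a median log2 difference of -0.05. Here 43.9% of all genes were lower, 5.03% were lower and 6.23% higher by more than 0.32, and Cox6b2 was the 1 member past that size. Both TAC comparisons had a larger median shift than this pair of sham pools, whose mice differed in age and not in surgery.

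Complex I, the entry point for NADH, was lower in 33 of 35 members at 2 weeks and 34 of 35 at 8 weeks, with medians of -0.15 and -0.20. Without normalization between arrays, 22 of 35 were lower at 8 weeks and the median was -0.03. Its hydrophilic arm, which reaches into the matrix, holds the sites that oxidize NADH and reduce coenzyme Q. On the brightest probes, all 16 members of this arm were lower at both times, with medians of -0.21 at 2 weeks and -0.23 at 8 weeks. A second probe of 1 of them, Ndufv3, was at 0.42 and 0.31. Among the 19 accessory members of the membrane arm, which pumps the protons, 17 and 18 were lower, with medians of -0.13 and -0.19. Over the scalings, the number lower went down to 14 and 12 of 16 in the matrix arm, and to 15 and 10 of 19 in the membrane arm. The matrix arm had the lower median of the 2 at both times under all 7 settings, and the difference was not tested. Settings that differ only by a constant per array (main, centering on the median, no normalization and the deposited table) cannot change this order.

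Ndufs1, the largest iron-sulfur subunit, had signals of 162 in sham and 133 in TAC at 2 weeks, and of 162 in sham and 132 in TAC at 8 weeks. Both TAC pools were thus below both sham pools, at 0.821 and 0.816 of the sham level. Ndufv1, which binds the flavin that takes the electrons from NADH, had signals of 557, 470, 535 and 452 in the same order of pools. In both genes the TAC pools were lower by similar factors at both times, and the sham pools lay close together. The lowest change in complex I at 2 weeks was -0.29 in Ndufa12, an accessory subunit of the matrix arm, which was at -0.17 at 8 weeks. At 8 weeks the lowest were Ndufs8 and Ndufv2, both iron-sulfur subunits, at -0.30 each.

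Ndufb3, an accessory subunit of the membrane arm, went the other way. Its signals were 150 in sham and 154 in TAC at 2 weeks and 155 in sham and 169 in TAC at 8 weeks, with log2 changes of 0.03 and 0.12. The 2-week value turned to -0.01 when arrays were centered on the median, whereas the 8-week value stayed above 0 under all 7 settings. Ndufa11, also of the membrane arm, had log2 changes of 0.04 and -0.03, both within the spot error.

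Complex II, succinate dehydrogenase, is both a TCA cycle enzyme and a donor of electrons to coenzyme Q, and has no subunit encoded in mitochondrial DNA. All 4 members were lower at both times, with medians of -0.20 at 2 weeks and -0.20 at 8 weeks. Sdhc, which anchors the enzyme in the membrane and helps to bind heme, had signals of 86.03 in sham and 66.6 in TAC at 2 weeks, and of 85.1 and 65.1 at 8 weeks. The sham pools were alike and both TAC pools lower, at 0.775 and 0.765 of sham. A second probe of Sdhc gave log2 changes of -0.44 and -0.39, beside -0.37 and -0.39 for the brighter one. Sdha, the flavoprotein with the succinate site, had signals of 103, 89.7, 97.4 and 86.6, in the order sham and TAC at 2 weeks, sham and TAC at 8 weeks. Sdhb, the iron-sulfur subunit, had signals of 621, 540, 601 and 514. Sdhd, the other anchor, differed less at 2 weeks, with 175 in sham and 168 in TAC, and had 183 and 161 at 8 weeks. The log2 changes of the 2 anchors at 2 weeks were thus apart, at -0.37 for Sdhc and -0.06 for Sdhd.

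Complex III was lower in all 9 members at both times, and its median moved from -0.14 at 2 weeks to -0.25 at 8 weeks. Its catalytic members are cytochrome c1, encoded by Cyc1, and the Rieske iron-sulfur protein, encoded by Uqcrfs1. Cyc1 had signals of 407 in sham and 358 in TAC at 2 weeks, and of 413 and 346 at 8 weeks. Uqcrfs1 had signals of 239 and 220 at 2 weeks, then 254 and 209 at 8 weeks. In both, the TAC pools lay below the sham pools and the 8-week TAC pool was the lowest of the 4. The core proteins Uqcrc1 and Uqcrc2, which carry no redox center, were at -0.20 and -0.16 on the log2 scale at 2 weeks, then -0.28 and -0.19 at 8 weeks. Uqcr10, a small accessory subunit, was the least changed at 8 weeks, at -0.05, and was above 0 at that time under 2 of 7 settings. Its 3 probes ranged from -0.15 to -0.10 at 2 weeks and from -0.09 to -0.05 at 8 weeks.

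Complex IV is the complex with tissue isoforms: several of its nuclear subunits exist as one form typical of heart and skeletal muscle and another found in most tissues. Of its 16 measured members 15 were lower at both times, with medians of -0.14 and -0.21. With quantile normalization 9 of 16 were lower at 2 weeks, with a median of -0.03, and without normalization between arrays 12 of 16 were lower at 8 weeks, with a median of -0.05. The subunits with a single form were lower throughout: all 5 of them (Cox5a, Cox5b, Cox6c, Cox7c and Ndufa4, a subunit first ascribed to complex I) had log2 changes between -0.16 and -0.08 at 2 weeks and between -0.25 and -0.16 at 8 weeks. Cox5a, next to the catalytic core, had signals of 1025, 915, 990 and 862 in sham and TAC at 2 weeks and sham and TAC at 8 weeks. Cox5b, which holds zinc, had 480, 455, 488 and 409. Cox4i1, the common form of subunit 4, had 907, 802, 883 and 751. For each of these the 8-week TAC pool was the lowest of the 4 and both TAC pools were below both sham pools. The share of all genes with this order is not given.

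In 3 subunits of complex IV both the muscle and the ubiquitous form were bright, so the forms could be compared by their change, though not by their level. Cox7a1, the muscle form of subunit 7a, had signals of 1183 in sham and 937 in TAC at 2 weeks, and of 1127 in sham and 793 in TAC at 8 weeks. Both TAC pools were below both sham pools, at 0.792 of sham at 2 weeks and 0.703 at 8 weeks, the lowest ratio of any bright member at 8 weeks. Its ubiquitous partner Cox7a2 had 227, 207, 221 and 183 in the same order. The log2 change of the muscle form was -0.34 at 2 weeks and -0.51 at 8 weeks, compared with -0.13 and -0.27 for the ubiquitous form.

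For subunit 6a the partners moved apart. Cox6a2, the muscle form, had signals of 1637 and 1426 at 2 weeks, then 1507 and 1314 at 8 weeks, with log2 changes of -0.20 at both times. Cox6a1, the ubiquitous form, had signals of 261 in sham and 304 in TAC at 2 weeks, and of 252 in sham and 270 in TAC at 8 weeks. Both TAC pools were above both sham pools, at 1.16 and 1.07 of sham, and the log2 change was above 0 under all 7 settings. The change of the muscle form minus that of the ubiquitous form was -0.42 at 2 weeks and -0.30 at 8 weeks. In subunit 8, the muscle form Cox8b had signals of 784, 674, 722 and 633, and the ubiquitous form Cox8a had 234, 233, 218 and 211. On the brighter of its 2 probes, Cox8a differed from sham by less than the spot error at either time, and its sign changed with the scaling. Its other probe was at -0.03 at 2 weeks and -0.20 at 8 weeks, where Cox8b was at -0.19. On that probe the muscle form was thus not the lower one at 8 weeks. With the brightest probes, the muscle form minus the ubiquitous form was -0.22 at 2 weeks and -0.14 at 8 weeks for subunit 8. For subunit 7a it was -0.21 and -0.24.

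**Figure D3:**
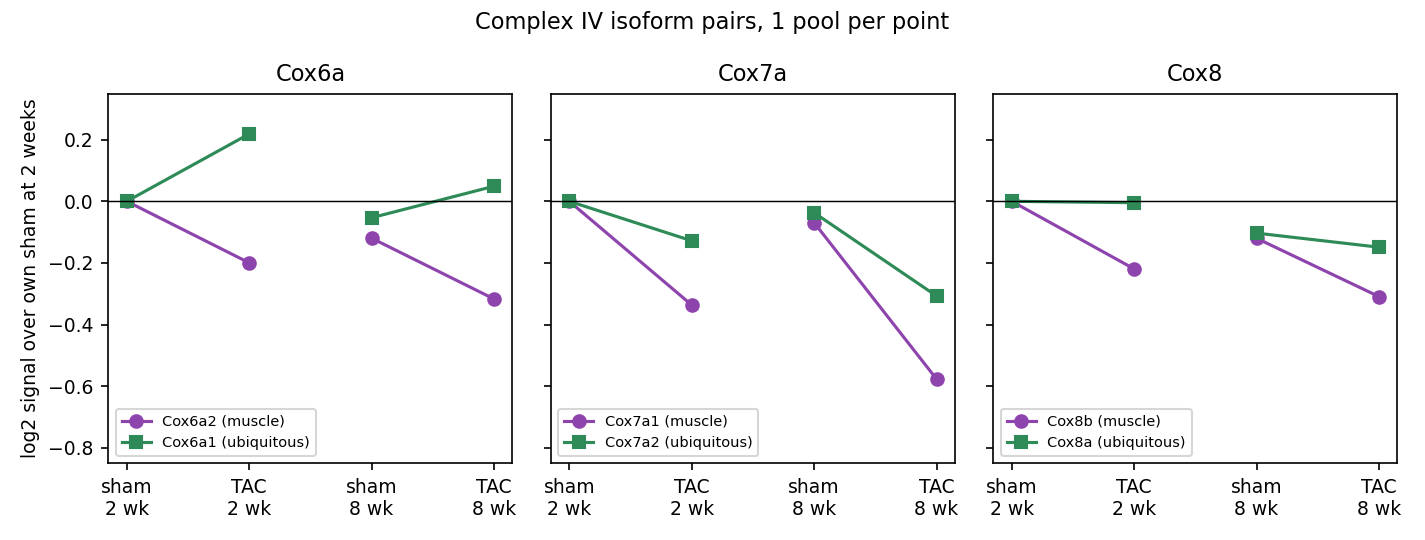
Log2 signal of the muscle form (circles) and the ubiquitous form (squares) of 3 complex IV subunits in the 4 pools (x axis), each relative to its own signal in the sham pool at 2 weeks (y axis), with 1 pool per point and no error bars. The brightest probe of each gene is drawn. In all 3 pairs, at both times, the step from sham to TAC is more negative for the muscle form. The gap is between 0.14 and 0.42 log2 units.

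On the brightest probes, the muscle form was thus the lower of the 2 in all 3 pairs at both times. This order held under quantile normalization, cyclic loess and normexp background correction. The deposited table could not alter it, because a factor per array cancels, and keeping outlier spots or dim probes left the values unchanged. For subunits 6a and 7a each form had 1 probe, so averaging probes was no check. Averaging those of Cox8a gave the smallest difference, -0.07 for subunit 8 at 8 weeks. That is below the 0.0780 of a single ratio, and a difference of 2 ratios carries more error. The other isoforms were less regular. Cox7b, the common form of subunit 7b, was at -0.19 and -0.31, and Cox6b1, the common form of subunit 6b, at -0.08 and -0.10. Cox4i2, a form of subunit 4 known from lung and from low oxygen, had dim signals of 2.63, 2.61, 2.67 and 2.35. Cox6b2, known from the testis, was also dim, with 1.71 in sham and 1.13 in TAC at 2 weeks, and 1.21 in sham and 0.867 in TAC at 8 weeks. Its log2 changes of -0.60 and -0.48 were among the largest of all members, and both TAC pools lay below both sham pools, but the sham pools themselves differed by -0.50 and TAC at 2 weeks was close to sham at 8 weeks.

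The upstream sequences of the muscle form Cox7a1 and of the ubiquitous form Cox6a1 are shown because the 2 genes serve the same complex and their changes had opposite signs at both times. The last is that of Atp5e, the complex V member with the lowest change at 8 weeks. Each is the 250 bases before the transcript start in RefSeq on GRCm38.p6, read 5′ to 3′ on the strand of the gene: chr7:30183921-30184170 on the plus strand for Cox7a1, chr5:115348959-115349208 on the minus strand for Cox6a1 and chr2:174464102-174464351 on the minus strand for Atp5e. Capitals mark matches, on either strand, to the letters GCGCANGCG of the NRF1 motif, AAGGTCA of the estrogen-related receptor (ERR) motif, CCGGAAG of the ETS motif that GABP binds, and AANATGGCG of the YY1 motif, all of them factors known for binding at genes of the respiratory chain.
Cox7a1: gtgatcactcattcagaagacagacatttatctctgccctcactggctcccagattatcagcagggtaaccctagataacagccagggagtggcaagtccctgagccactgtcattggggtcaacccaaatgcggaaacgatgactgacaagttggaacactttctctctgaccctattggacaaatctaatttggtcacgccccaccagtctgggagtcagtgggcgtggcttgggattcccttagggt
Cox6a1: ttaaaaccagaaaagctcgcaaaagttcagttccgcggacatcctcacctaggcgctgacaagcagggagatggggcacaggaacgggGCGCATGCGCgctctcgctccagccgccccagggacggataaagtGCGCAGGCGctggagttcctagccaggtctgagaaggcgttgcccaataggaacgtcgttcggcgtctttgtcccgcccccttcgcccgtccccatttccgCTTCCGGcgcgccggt
Atp5e: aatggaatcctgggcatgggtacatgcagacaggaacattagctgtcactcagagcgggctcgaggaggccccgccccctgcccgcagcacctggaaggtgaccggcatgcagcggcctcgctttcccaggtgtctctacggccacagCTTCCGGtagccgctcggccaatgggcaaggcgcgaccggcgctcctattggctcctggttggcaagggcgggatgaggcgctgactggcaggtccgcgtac
The Cox7a1 sequence held none of these letters. The Cox6a1 sequence held 3 NRF1 matches, of which 2 overlap on opposite strands, and 1 ETS match. That of Atp5e held 1 ETS match. A match is only a run of letters, and its absence in this window says nothing about a factor.

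RefSeq promoters were at hand for 70 of the 86 members, and were searched over 300 bases, from 250 before to 50 after each start. The NRF1 letters were present in 21 of the 70, compared with 7.03% of the 27025 genes in the table and 9.63% of those that code for proteins. The ETS letters were in 17 members (24.3%), compared with 9.93% of all genes and 12.9% of those that code for proteins. The YY1 letters were in 12 (17.1%), compared with 2.76% and 3.64%. The ERR letters were in 9 (12.9%), compared with 5.38% and 4.73%. The median log2 change at 8 weeks was -0.20 in those with the NRF1 letters and -0.22 in those without, and -0.19 and -0.22 for the ERR letters. These differences were not tested.

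Complex V was lower in all 17 members at both times, with medians of -0.20 and -0.24. Its F1 head turns ADP into ATP on 3 catalytic beta subunits, encoded by Atp5b, that alternate with alpha subunits, encoded by Atp5a1. Atp5b had signals of 1068 in sham and 939 in TAC at 2 weeks, and of 1057 in sham and 925 in TAC at 8 weeks. Atp5a1 had 620 and 544 at 2 weeks and 634 and 515 at 8 weeks. In both the sham pools lay together and the TAC pools below them, at 0.879 and 0.875 of sham for Atp5b and at 0.877 and 0.812 for Atp5a1. The rotating central stalk was lower as well. Its gamma subunit Atp5c1 had log2 changes of -0.21 and -0.23, and its delta subunit Atp5d had -0.23 at both times. Atp5e, the epsilon subunit, had signals of 568 in sham and 464 in TAC at 2 weeks, and of 525 in sham and 395 in TAC at 8 weeks, or 0.817 and 0.752 of sham.

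The peripheral stalk holds the F1 head still while the central stalk turns. Its 4 members (Atp5pb, Atp5h, Atp5j and Atp5o) were lower at both times, with medians of -0.27 at 2 weeks and -0.29 at 8 weeks, and stayed so under every scaling. Atp5o, which ties the stalk to the head, had signals of 286, 231, 261 and 219, and Atp5pb, the long subunit b, had 182, 148, 180 and 146. Their ratios of 0.807 and 0.811 at 2 weeks were the lowest of complex V on the brightest probes, with Atp5e close to them at 0.817. Other probes changed this order. A second probe of Atp5pb had a log2 change of -0.15 at 2 weeks, and those of Atp5j and Atp5c1 had -0.42 and -0.34. The c ring, the rotor that protons turn in the membrane, is built from an identical mature protein encoded by Atp5g1, Atp5g2 and Atp5g3. Atp5g1 had signals of 1281, 1175, 1137 and 994, Atp5g2 had 408, 346, 366 and 309, and Atp5g3 had 964, 882, 974 and 827. At 8 weeks their log2 changes on the brightest probes were -0.19, -0.24 and -0.24, alike within the spot error. Second probes gave -0.10 for Atp5g1 and -0.19 for Atp5g2. In Atp5g1 and Atp5g2 the 8-week sham pool was itself lower than the 2-week one, by -0.17 and -0.16.

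The largest distance of a complex from the median of all members was -0.05 at 2 weeks, for complex II, and -0.04 at 8 weeks, for complex III. Under 9 alternatives the distance of each complex stayed between -0.06 and 0.06. Without normalization between arrays, the medians at 8 weeks were -0.04 for complex II, -0.09 for complex III and -0.07 for complex V. With quantile normalization 3 of 4, 7 of 9 and 15 of 17 of their members were lower at 2 weeks, with medians of -0.14, -0.04 and -0.10. Differences between the complexes were not tested.

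The 5 associated proteins did not share 1 direction. Ndufa4l2, a relative of Ndufa4 known to respond to low oxygen, had signals of 9.19 in sham and 10.9 in TAC at 2 weeks, and of 10.2 in sham and 10.9 in TAC at 8 weeks. Its log2 changes of 0.25 and 0.10 were above 0 under all 7 settings, on a probe that was not among the bright ones. Atpif1, the inhibitor that stops ATP synthase from consuming ATP, had 204, 192, 215 and 225, and Cox7a2l, which helps to join complexes into supercomplexes, had 180, 174, 180 and 189. Both were below sham at 2 weeks and above it at 8 weeks, by less than the spot error except for Atpif1 at 2 weeks, at -0.09. Dmac2 and Dmac2l, named earlier after ATP synthase, were lower at both times, by -0.11 and -0.10 for Dmac2 and -0.21 and -0.14 for Dmac2l.

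Changes at the 2 times went together, in pairs of pools that share no array but share the slide. Across the 86 members, which are not independent replicates, the log2 changes at 2 and 8 weeks had a Pearson correlation of 0.72 and a Spearman correlation of 0.52. In 80 members both changes were below 0, in 3 both were above (Ndufb3, Cox6a1 and Ndufa4l2) and in 3 the signs differed (Ndufa11, Atpif1 and Cox7a2l). The change was lower at 8 than at 2 weeks in 61 of 86 members, against 6858 of 14107 genes and 427 of 1134 other bright genes. The median difference over the 86 was -0.04. Its direction depended on the scaling. With centering on the median, the members' median was -0.19 at 2 weeks and -0.13 at 8 weeks. Without normalization between arrays it was -0.16 and -0.05. For the other bright genes the Pearson correlation was 0.85, and 565 of 1134 were lower at both times.

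**Figure D4:**
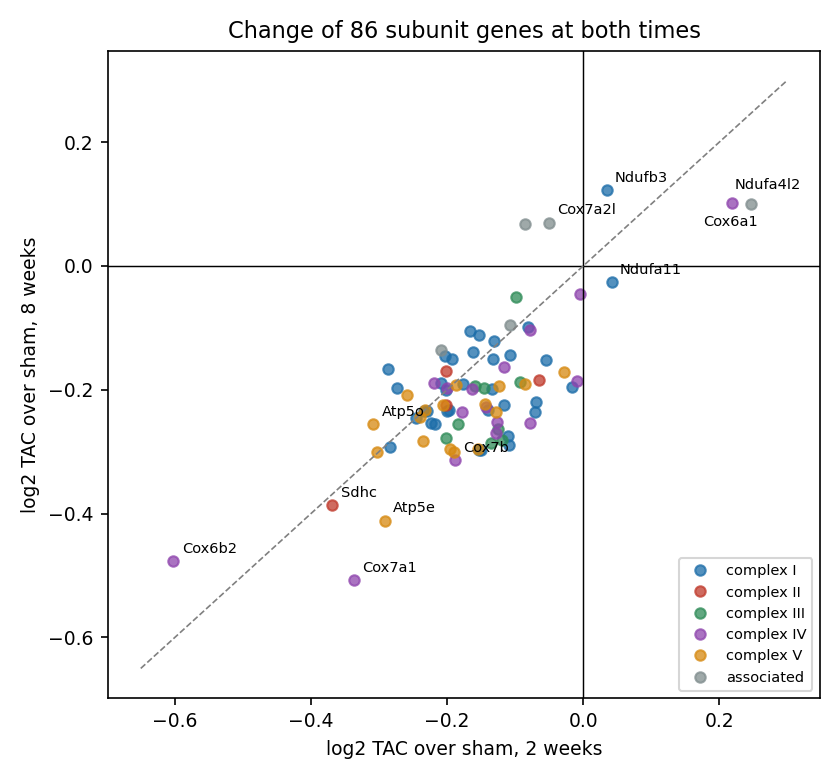
Log2 ratio of TAC to sham at 2 weeks (x axis) and 8 weeks (y axis) for the 86 members, 1 point per gene, colored by complex; the dashed line marks equal change. The cloud lies in the lower left quadrant with 80 genes, and Cox7a1, Sdhc, Atp5e and Cox6b2 extend it downward, while Ndufb3, Cox6a1 and Ndufa4l2 lie above 0 at both times.

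Several probes for the same gene gave a check on single values. Of the members, 27 had more than 1 probe, and all of their probes were measured. The log2 changes of a gene's probes spanned a median of 0.06 at 2 weeks and 0.07 at 8 weeks. In 25 of the 27 genes every probe was lower at 2 weeks, and in 24 at 8 weeks. The widest span was in Ndufv3, an accessory subunit of the matrix arm, where 1 probe gave -0.22 and -0.25 and the other gave 0.42 and 0.31. The other probe of Ndufb11 was at -0.57 at 2 weeks, against -0.14 for the brighter one, and that of Atp5j at -0.79 at 8 weeks, against -0.30. Probes of these genes can also bind RNA of closely similar pseudogenes, which this array cannot separate.

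The subunits encoded in mitochondrial DNA, which assemble with the nuclear ones, were measured in 12 of 13 genes. At 2 weeks 11 of 12 were lower, with a median of -0.10, and at 8 weeks 12 of 12, with a median of -0.21. Cyclic loess moved the 2-week median to 0.00, and 6 to 11 of the 12 were lower over the scalings. mt-Co1, the catalytic subunit of complex IV, had signals of 1866, 1810, 1828 and 1573 in sham and TAC at 2 weeks and sham and TAC at 8 weeks. mt-Nd1, in the coenzyme Q site of complex I, was the lowest, at -0.23 and -0.36. At 8 weeks the medians were -0.21 for both the mitochondrially and the nuclear-encoded subunits, but -0.11 and -0.15 with quantile normalization. Without normalization between arrays they were -0.04 and -0.05, with 9 of the 12 mitochondrially encoded subunits lower. Cycs, the cytochrome c that links complexes III and IV, was at -0.08 and -0.18, and Slc25a4, the ADP and ATP carrier of heart, at -0.08 and -0.17.

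Assembly factors, which build the complexes without being part of them, followed the subunits less closely. Of 47 measured, 34 were lower at 2 weeks, with a median of -0.08, and 24 at 8 weeks, with a median of -0.01 that was above 0 under some scalings, at most 0.16. Past a log2 change of 0.32, 2 were lower and 2 higher at 2 weeks, and 0 lower and 2 higher at 8 weeks. Of all measured genes, 8.44% were lower and 12.5% higher past that size at 2 weeks, and 11.9% and 13.3% at 8 weeks. Cox19, which handles copper for complex IV, was higher at both times, with signals of 14.2, 21.1, 14.7 and 27.4 and log2 changes of 0.57 and 0.90. Both of its TAC values were above both sham values.

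Pathways that feed the chain were lower by more than the chain itself. In the TCA cycle, which supplies NADH and succinate, all 13 genes were lower at both times, with medians of -0.24 and -0.26, and 3 passed 0.32 at 2 weeks and 4 at 8 weeks. In fatty acid oxidation 15 of 18 genes were lower at 2 weeks and 18 of 18 at 8 weeks, with medians of -0.30 and -0.33, and 8 and 9 passed 0.32. Among all measured genes 8.44% were lower and 12.5% higher by more than 0.32 at 2 weeks, and 11.9% and 13.3% at 8 weeks. Acaa2, the last thiolase of the fatty acid spiral, had signals of 585 and 411 at 2 weeks and 551 and 367 at 8 weeks. The order fatty acid oxidation, TCA cycle, nuclear subunits, from the lowest median up, held at both times under all 7 settings. Only quantile normalization, cyclic loess and normexp could have changed it, since the other settings differ by a constant per array. With 1 array per group the differences between lists were not tested.

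**Figure D5:**
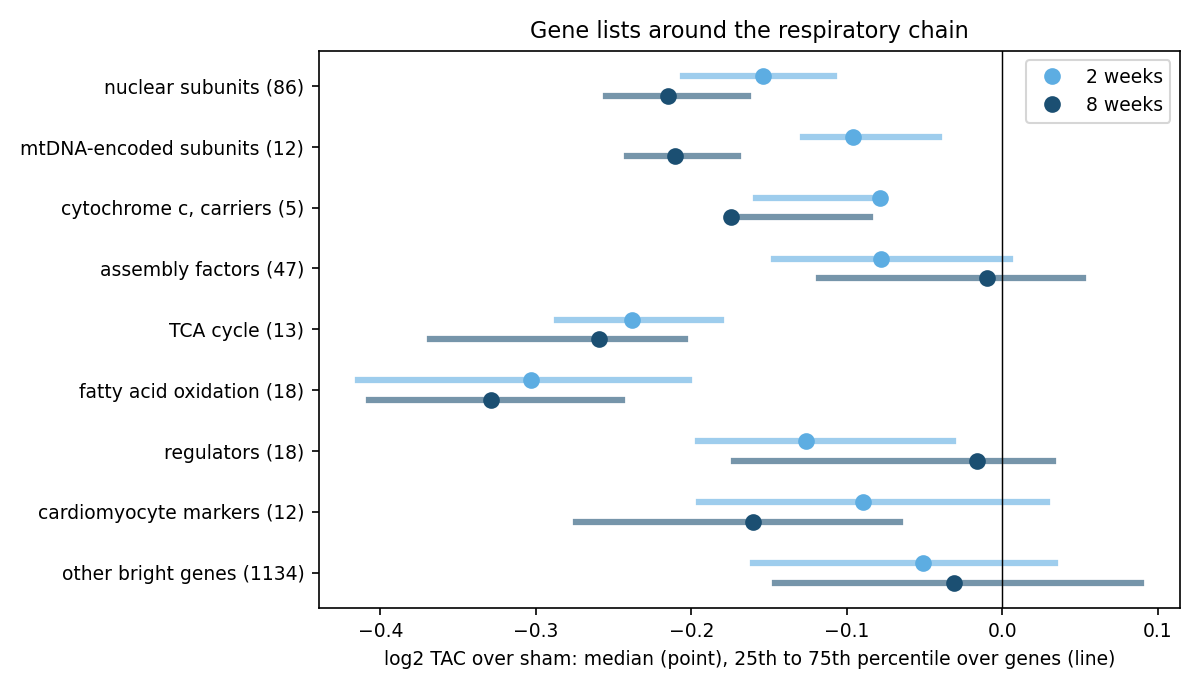
Median log2 ratio of TAC to sham (points) and the range from the 25th to the 75th percentile over genes (lines) at 2 weeks (light) and 8 weeks (dark) for 9 gene lists, with the number of measured genes in brackets. Fatty acid oxidation lies lowest at -0.30 and -0.33, the nuclear subunits lie at -0.15 and -0.21, and the assembly factors at 8 weeks lie at -0.01.

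Transcripts of the regulators did not share 1 direction. Of 18 measured, 15 were lower at 2 weeks and 10 at 8 weeks, with medians of -0.13 and -0.02, the latter above 0 under some scalings. Ppargc1a, the coactivator PGC-1alpha that drives mitochondrial biogenesis, had signals of 23.0 in sham and 21.2 in TAC at 2 weeks, and of 15.3 in sham and 19.0 in TAC at 8 weeks. Its log2 change was -0.12 at 2 weeks and 0.31 at 8 weeks, but the sham pools themselves differed by -0.59, so that both TAC pools lay between them. Esrra, the receptor ERRalpha that acts with it, had 73.4, 62.5, 73.2 and 63.0, with both TAC pools below both sham pools, at -0.23 and -0.22. Ppargc1b was at -0.08 and -0.22, and Esrrg at -0.21 and 0.03. Nrf1 was at 0.01 and -0.01, and Tfam, which packs and transcribes mitochondrial DNA, at 0.00 and -0.06. Gabpa was at 0.53 at 2 weeks and 0.01 at 8 weeks on a dim probe. The largest regulator change at 2 weeks in the other direction was Ppara, the fatty acid receptor, at -0.35.

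Markers of other cells moved with the comparisons. The summed signal of the 12 cardiomyocyte markers was 0.951 of sham at 2 weeks and 0.910 at 8 weeks, with 7 and 9 of 12 lower, and their median changes of -0.09 and -0.16 were less negative than those of the members; that at 8 weeks was 0.01 without normalization between arrays. The summed signal of 10 fibroblast and matrix genes was 219 in sham and 307 in TAC at 2 weeks and 244 and 354 at 8 weeks, or 1.40 and 1.45 of sham. That of 10 macrophage genes was 51.5 and 65.6 at 2 weeks and 53.1 and 70.3 at 8 weeks, or 1.27 and 1.32 of sham. That of 7 endothelial genes was 1.23 of sham at 2 weeks and 0.925 at 8 weeks. The part of these cells in the lower subunit signals was not tested. The summed signal of the skeletal muscle genes was 0.764 and 0.747 of sham, that of the atrial genes, nearly all of it Nppa, 3.54 and 6.12, and that of the erythroid genes 0.824 and 1.06. Of 6 markers of brown fat, which also uses Cox8b, 4 were well above background on all 4 arrays, and Ucp1 and Elovl3 on none. Their summed signal, nearly all of it Cox8b, was 0.865 and 0.900 of sham. Of 7 markers of white fat 4 were well above background on all arrays, and Adipoq, Lep and Plin1 on none. Their sum was 1.17 and 0.992 of sham, and that of the 8-week sham pool was 0.720 of the 2-week one. For skeletal muscle, which shares the muscle forms of complex IV, 4 of 9 markers were well above background on all arrays. Myh1, Myh2, Myh4, Actn3 and Mylpf were so on none. Other hypertrophy genes were higher in TAC: Nppa was at 1.84 and 2.65 on the log2 scale, Nppb at 1.03 and 1.94, and Acta1 at 3.09 and 3.41. Myh6, the alpha myosin heavy chain, was at -0.19 at both times and Atp2a2, the calcium pump of the sarcoplasmic reticulum, at -0.45 and -0.37.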

How the data were processed

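Total RNA of 4 pools, 1 per group, was labeled with Cy3 and hybridized to SurePrint G3 Mouse GE 8x60K arrays. The authors deposited the scanner output of Agilent Feature Extraction (10.7.3.1 per the file headers, 9.1 per the labels): an intensity per spot, background-subtracted and detrended, not normalized between arrays. They also deposited a table that holds these values multiplied by a fixed factor for each array.

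Outlier spots were dropped, spots of a probe were averaged as log2, and the 75th percentile of the 55681 non-control probes was subtracted (Python 3.11.15, pandas 2.3.3). Probes were named through their accession by RefSeq (GRCm38.p6) and GENCODE tables, which named 28919 probes of 21248 genes. The brightest probe stood for a gene. Emc8 and Ndufaf2 matched only by an older name, are other proteins, and were left out. Genes named in the text were the catalytic subunits (1 of them is not reported here), all complex IV isoforms, the c-ring genes, the 5 lowest and 5 highest changes at each time, the regulators and the hypertrophy genes. Cox19, mt-Co1, mt-Nd1, Slc25a4, Cycs, Acaa2, Ppara and the extremes of a complex were named after their values were seen. The members and lists were chosen with earlier results of these data known, and the limit for bright genes was set after seeing the data. The counting was tested on simulated data. With 1 array per group there is no test, and precision rests on the number of arrays. The alternatives included quantile and cyclic loess normalization and normexp with an offset of 50 (limma 3.58.1, R 4.3.3).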

Additional observations from a re-analysis of the deposited data

Results flagged for a closer look

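In 3 members the change after TAC had opposite signs at 2 and 8 weeks, which the single array per condition does not allow to be tested. The later log2 change less the earlier one was -0.0677 for Ndufa11 (from 0.04 to -0.03), 0.15 for Atpif1 (from -0.09 to 0.07) and 0.12 for Cox7a2l (from -0.05 to 0.07). Cox7a2l had 3 probes, whose changes at 8 weeks ran from -0.05 to 0.11, so the sign change did not hold for each of them. The 4 changes of Ndufa11 and Cox7a2l were each within the 0.0780 between spots of a bright probe, and so was that of Atpif1 at 8 weeks. Over the 7 settings, Ndufa11 was lower at 8 weeks in 4, and Cox7a2l and Atpif1 were lower at 2 weeks in 5 and 6.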

How the results depend on the processing

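The sign of the members' median stayed negative at both times under each of 10 alternatives (scaling, background correction, probe choice, filter, outlier spots and the deposited table), from -0.19 to -0.07 at 2 weeks and from -0.21 to -0.05 at 8 weeks. It moved by more than 0.0780 to -0.0749 at 2 weeks under cyclic loess, and at 8 weeks to -0.128 with centering on the median and to -0.0470 without normalization between arrays. The count of members lower by over 0.32 at 2 weeks, 3 in the main setting, was 1 under quantile normalization, 1 under cyclic loess, 8 with centering on the median, 1 relative to the other bright genes (an alternative chosen after seeing the data), 1 past 1.5-fold and 0 past 2-fold. At 8 weeks the count of 4 was 1 without normalization between arrays, 0 past 1.5-fold and 0 past 2-fold. Centering on the median also moved the median of all genes at 2 weeks, from -0.01 to -0.05. The shares of all genes past the limit are given for the main setting only, so these counts have no matching background. The count of higher members was 0 under all 12 alternatives at both times. The Cox6a difference between muscle and ubiquitous form at 8 weeks was -0.17 under quantile normalization. The cause of these shifts was not tested, apart from the fold limits, which by construction leave fewer genes. The distance of each complex from the members' median moved by less than 0.0780 under 9 alternatives, a limit wider than the distances themselves. Its sign changed among them for complex I at 2 weeks (-0.01 to 0.01). At 8 weeks it changed for complex II (-0.02 to 0.02) and complex IV (-0.02 to 0.02). No array could be left out and no paired analysis was possible because each group has 1 array. Differences under about 0.0780 on the log2 scale for a bright gene, and 0.184 for genes in general, are within spot error, and differences between mice were not measured.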
